A study of Mus musculus with 12 samples.

Results

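Circular RNAs (circRNAs) whose host genes carry the names of fatty acid and lipid enzymes were read out in mouse liver. A circRNA, called a circle below, is a closed loop that forms when an exon's end is joined to the beginning of that exon or of one upstream. A circle was included when it lay inside a protein-coding gene of the GENCODE M21 annotation (assembly GRCm38), had at least 1 end on an exon boundary of that gene, and the gene's name began as those of the fatty acid or lipid enzyme families do or was Ehhadh or Crot. The rule used positions and names only, and no measured value. It gave 178 of the 16445 circles in the table, or 1.08%, from 57 host genes. Another 77 of the 134 gene names that match had no circle in the table. The name pattern also takes in Gpatch1, Gpatch2, Gpatch2l and Gpatch8, which encode G-patch domain proteins and not lipid enzymes. Their 19 circles are counted with the 178 and are described apart. The other 159 circles came from 53 hosts.

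The livers came from 12 mice, labelled as strain C57BL/8. The 6 PZH mice had injections of 10% carbon tetrachloride (CCl4, a hepatotoxin that produces fibrosis in rodents) at 10 µl per 10 g of body weight, 2 times a week, and received Pien Tze Huang (PZH), a medicine of Chinese tradition, at 25 mg/ml once a day from week 2 to week 8. The 6 Control mice had the same CCl4 injections without PZH. Livers were taken in week 8. No liver free of CCl4 was analysed here, and every value compares CCl4 plus PZH with CCl4 alone.

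The liver takes up fatty acids, ties them to coenzyme A, and either burns them in mitochondria and peroxisomes or builds them into triglycerides, phospholipids and cholesterol esters. In between, carnitine transferases carry acyl groups across membranes, thiolases make and break acetoacetyl-CoA, and peroxins bring enzymes into peroxisomes. A circle of such a gene usually holds a few inner coding exons. It is made in place of, or beside, the linear mRNA, so its level is not the level of the enzyme's mRNA. Neither mRNA nor protein was measured in the values used here.

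The measured feature is the back-splice junction, where the last exon of the circle meets its first exon. The sequences below are shown because they are what tells circles of 1 gene apart. They are from the GENCODE M21 transcripts, 5′ to 3′ on the gene's strand, with the last 15 bases of the last exon in lower case and the first 15 bases of the first exon in capitals. The first 4 are of Acat1, the next 4 of Acsm1, and then come those of Pex7 and Acadm.
Acat1 exons 4 to 5: atgtgtggacatcagGGATTCCAAAAGAAG
Acat1 exons 4 to 7: ccatctcagtgaaagGGATTCCAAAAGAAG
Acat1 exons 4 to 8: tccagaaagaaaatgGGATTCCAAAAGAAG
Acat1 exons 6 to 8: tccagaaagaaaatgGATGTGATGGTGGCA
Acsm1 exons 3 to 6: aaagtcattgtagagGAGGGCAAGAGAGGA
Acsm1 exons 4 to 6: aaagtcattgtagagGGATCATCTTCATGC
Acsm1 exons 5 to 6: aaagtcattgtagagATCAGCATCCCCAGA
Acsm1 exons 5 to 10: ttcatggaatatgagATCAGCATCCCCAGA
Pex7 exons 4 to 8: tgacttcactgtaagGTGTATAGTGTTGAT
Acadm exons 3 to 8: catattggaaaaaagAGTTGACGGAACAGC

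In Acat1, 3 circles share the capitals of exon 4 and differ in the exon spliced onto it. In Acsm1, 3 circles share the lower-case end of exon 6 and differ in the exon that it is joined to. None of the 45 junctions that were read, those of the circles tested below, occurred as a linear stretch of an annotated transcript. For 4 of the 45, the 20 bases on at least 1 side of the junction were also found in another gene. For Acadm exons 3 to 8 both sides were, in Gm5131, so reads of the circle could not be told from that gene by these bases. The circles of Acat3 share the acceptor side with the paralogue Acat2 without a mismatch over 30 bases, while the donor side differs at 1 base in the circle of exons 6 to 9 and at 6 in that of exons 6 to 7. For Acaca exons 6 to 10 the donor side alone was also found in another gene, Gm5182. Values of the circles of Acadm and Acat3 and of this Acaca circle are therefore uncertain as to the gene of origin.

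In build, the 178 circles were close to the whole table. Both ends lay on exon boundaries in 97.2% of them and in 95.7% of all circles. They spanned a median of 3 exons, as in the whole table, and a median of 433 exonic bases, against 417. Exon 2 was the first exon in 21.4% of them and in 24.2% of all circles. A length that is a multiple of 3 was found in 36.4%, against 37.6%. The introns beside them were shorter, with medians of 3970 bp upstream and 3546 bp downstream, against 5584 bp and 4437 bp in the whole table, and 93.8% lay wholly in coding sequence, against 85.7%. These shares are descriptions and were not tested. Of the 178, 106 share a start or an end with another circle of the same host, so circles of 1 gene are not independent of each other.

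Values are in SRPBM, by its usual meaning spliced reads relative to a library's mapped reads, as the authors deposited them. The libraries summed to 28922 to 41080 SRPBM over all circles. Many low values sat near whole steps, 56.8% to 63.8% of them per library. The step was set so that a library's smallest value above 0 is 2 steps. It was taken as 1 read pair, which was not tested, and values in units of that step are given as read-pair equivalents. The libraries held 92559 to 129699 of these in PZH and 80442 to 130487 in Control. Where above 0, a lipid gene circle had a median of 5.02 read-pair equivalents, which limits the precision of most of them, and 87 of the 178 were above 0 in a single library. A value of 0 means that the circle was listed at 0, not that it was absent. Hepatocyte marker genes had circles for 10 of 12 genes, summing to 64.6 to 125.5 SRPBM in PZH and 47.7 to 95.5 in Control. The stellate cell and fibroblast list summed to 10.1 to 22.0 SRPBM in PZH and 1.78 to 9.60 in Control, without overlap. Like the other lists, it was chosen with earlier results known. Among all tested sums of single host genes, groups did not overlap for 0.862%. That share is not the rate for sums over several genes, such as these lists. The signal came from 4 of 11 genes, Reln, Dlc1, Zeb2 and Hgf. Of their circles 3 were tested, 2 with a positive and 1 with a negative fold change. Lrat, Pdgfrb, Des, Col1a1, Col1a2, Col3a1 and Ngfr had no circle. Macrophage genes (4 of 8 with circles) summed to 40.6 to 65.7 in PZH and 34.1 to 58.7 in Control, endothelial genes (7 of 9) to 24.3 to 38.9 in PZH and 31.2 to 57.1 in Control, and the cholangiocyte list, carried by 1 of 6 genes, to 3.88 to 12.5 in PZH and 0.877 to 14.7 in Control. Fold changes of tested hepatocyte circles were positive for 7 and negative for 3, and those of macrophage circles for 4 and 2. Endothelial circles had 1 positive and 8 negative, and the 1 tested cholangiocyte circle was positive. Of all circles tested, 45.7% had a negative fold change. No marker circle passed the adjusted test, and the part of cell makeup in the values below was not tested. In whole tissue, fewer cells of a type and less RNA per cell cannot be told apart.

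The signal of lipid gene circles as a whole was lower on average in PZH by an amount that depends on the scaling. In deposited units they summed to 319.7 ± 41.3 SRPBM in PZH livers and 334.5 ± 40.6 in Control livers (SD, n = 6 each), a difference of -14.7 that is smaller than either SD. With libraries scaled by median of ratios or to equal sums, the difference was -23.8 or -25.8. As a share of all circle signal they made up 0.881 ± 0.039% in PZH and 0.954 ± 0.069% in Control, means that lie further apart than either SD. The groups overlapped, at 0.827 to 0.922% in PZH livers and 0.896 to 1.08% in Control livers. Control replicate 6 was the highest, and the next Control liver was at 0.981%. No p is given for these sums and shares. A small set carried most of it: the 10 most abundant circles held 63.1% of the signal, and the circle of Acaca exons 2 to 3 alone held 26.2%.

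**Figure D1:**
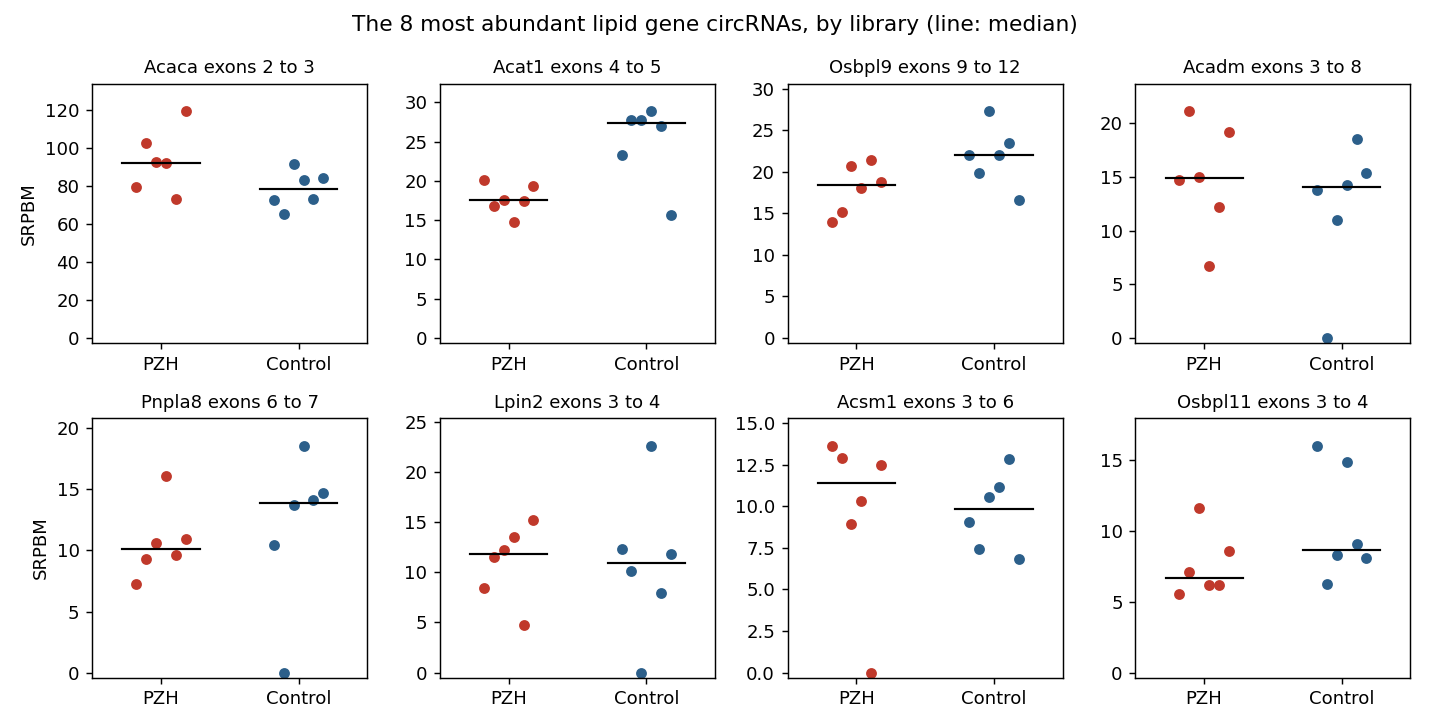
SRPBM (y axis) of the 8 most abundant circles of lipid genes in each library, PZH left and Control right; each point is 1 liver and the line is the median. The Acat1 points of 5 Control livers, at 23.3 to 28.9, lie above all PZH points, and single livers are listed at 0 for Acadm, Pnpla8, Lpin2 and Acsm1.

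To ask which circles differ when PZH is added, limma was fitted to all 3870 circles above 0 in at least 6 of 12 libraries, on log2(SRPBM + 0.636). Fold changes are on that scale, PZH over Control, which understates changes of low circles. Among the lipid gene circles, 45 passed this filter and carried 90.1% of their signal. The other 133 were too rare to test. None of the 45 had a limma adjusted p under 0.05, where the background over all 3870 was 0.0517%, or 2 circles. The smallest adjusted p of the 45 was 0.549. At an unadjusted p under 0.05 there were 3 of 45, or 6.67%, against 7.55% of all circles tested, which is near the background: 1 of the 3 had a positive fold change and 2 a negative one, where the background was 4.55% and 3%. Negative log2 fold changes were found for 26 of the 45, or 57.8%, against 45.7% of all circles tested, and the median log2 fold change was -0.16, against 0.06. No circle of the 45 had groups that did not overlap (0.672% of all tested), and none was above 0 in at least 5 libraries of 1 group and at most 1 of the other (1.47%).

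**Figure D2:**
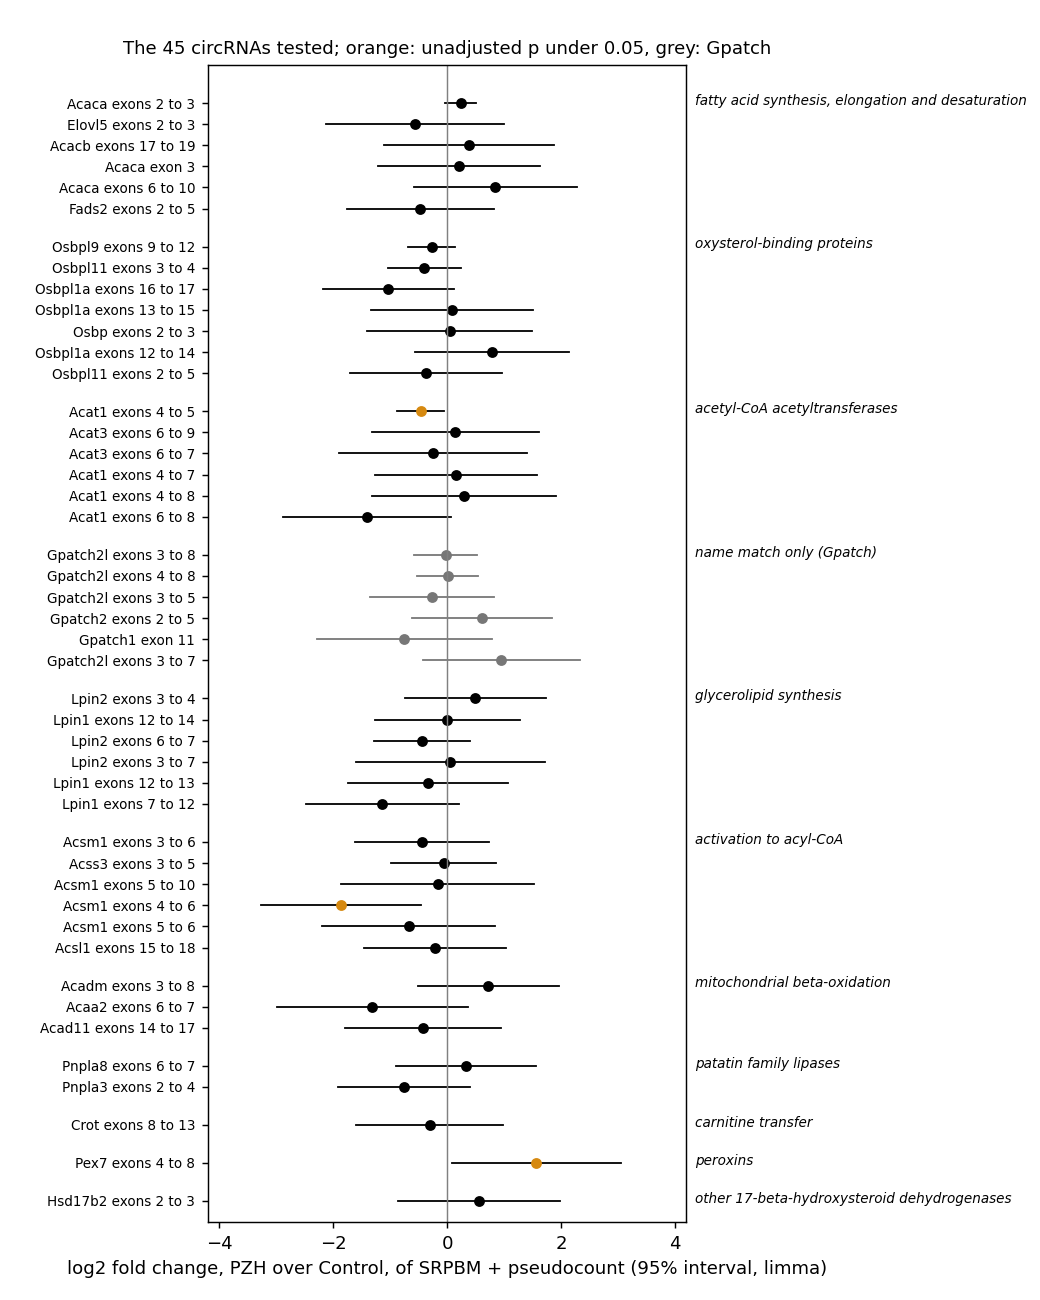
Log2 fold change (x axis, PZH over Control, of SRPBM + 0.636) of the 45 tested circles by role, with 95% intervals from limma. The 3 orange points have an unadjusted p under 0.05, the grey ones are Gpatch circles, and the interval is narrowest for Acaca exons 2 to 3, from -0.03 to 0.51.

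The first step of fatty acid use is activation to acyl-CoA. The 22 circles of 6 activating hosts averaged 22.3 ± 7.52 SRPBM in the 6 PZH livers and 29.2 ± 9.36 in the 6 Control livers (SD), a difference smaller than the Control SD. All 6 tested circles had negative log2 fold changes, with a median of -0.33, and none passed after adjustment. Of those 6, 4 were of Acsm1, which encodes a mitochondrial medium-chain acyl-CoA synthetase, and they share ends, so the 6 are not 6 independent signs.

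The main Acsm1 circle, exons 3 to 6 (chr7:119633062-119640734, plus strand, 720 exonic bases, all coding), had 0, a median of 11.4 and at most 13.7 SRPBM in PZH, against 6.85, 9.83 and 12.8 in Control. PZH replicate 5 was the library at 0; without it the log2 fold change was 0.27, against -0.44 with it (SE 0.57, limma adjusted p = 0.895). Its sign thus rests on 1 library.

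The shorter Acsm1 circle of exons 4 to 6 (chr7:119636450-119640734, 509 bases) shares the downstream end and had the smallest p of the 45. Its values were 0, 1.60, 0, 4.69, 0 and 0 SRPBM in PZH replicates 1 to 6, against 4.51, 3.04, 3.83, 1.21, 3.71 and 6.12 in Control. It was thus above 0 in 2 PZH and 6 Control livers, yet PZH replicate 4 had more than 5 of the Control livers, so the groups overlap. Its log2 fold change was -1.87 (SE 0.68, 95% interval -3.27 to -0.46), with an unadjusted p of 0.0118 and a limma adjusted p of 0.549. Leaving out each library in turn gave -2.32 to -1.70, with adjusted p of 0.401 to 0.684.

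The same last exon was also joined to exon 5 (chr7:119638065-119640734, 301 bases), in 3 PZH and 4 Control livers (log2 fold change -0.68, SE 0.73, adjusted p = 0.867). The circle of exons 5 to 10, which has exon 5 as its first exon too, was above 0 in 4 livers of each group, at -0.16 (SE 0.82, adjusted p = 0.978). Over all 7 circles of Acsm1 the sum was 15.01 ± 7.22 SRPBM in PZH livers and 19.3 ± 3.66 in Control livers. Acss3, a short-chain acyl-CoA synthetase of liver mitochondria, had 6 circles. Its circle of exons 3 to 5 was above 0 in all 12 livers, with 1.55, 4.46 and 5.16 SRPBM as lowest, median and highest in PZH, against 2.21, 3.68 and 7.83 in Control (log2 fold change -0.06, SE 0.44, adjusted p = 0.983). Acsl1, the chief long-chain acyl-CoA synthetase of liver, had 1 tested circle of 4, exons 15 to 18, in 3 livers of each group (-0.22, SE 0.60, adjusted p = 0.960). The circles of Acsl3, Acsl4 and Acsf2 were too rare to test.

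**Figure D3:**
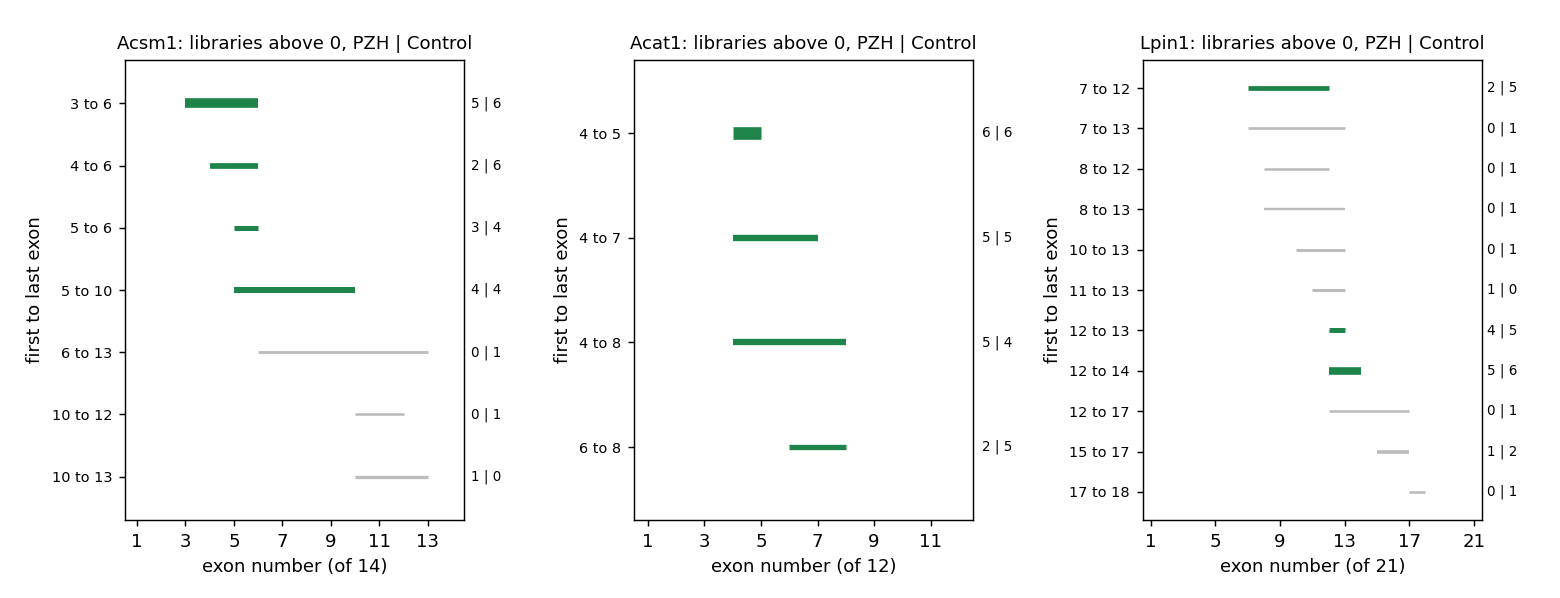
All circles of Acsm1, Acat1 and Lpin1 drawn by the exons they span (x axis, exon number in 1 annotated transcript); a line runs from the first to the last exon, is wider for a higher mean SRPBM over the 12 livers, and is green for tested and grey for untested circles. The numbers at the right count the livers above 0, PZH then Control, such as 2 and 6 for Acsm1 exons 4 to 6.

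Carnitine transferases had 10 circles of 2 hosts, and 1 was tested. That circle, Crot exons 8 to 13 (chr5:8973586-8978291, minus strand, 645 bases), belongs to the peroxisomal carnitine octanoyltransferase. It had 0, 3.42 and 6.66 SRPBM as lowest, median and highest in PZH, against 1.14, 3.32 and 6.47 in Control, a near-complete overlap. Its log2 fold change was -0.31 (SE 0.62, limma adjusted p = 0.941) and turned to 0.16 without PZH replicate 4, the liver at 0. Cpt1a, the gate for long-chain fatty acids into mitochondria, had 5 circles, none of them in 6 livers.

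Mitochondrial beta-oxidation was represented by 15 circles of 7 hosts, which summed to 22.1 ± 8.86 SRPBM in PZH and 23.3 ± 7.78 in Control. The largest was Acadm exons 3 to 8 (chr3:153933027-153939167, minus strand, 590 bases), of the medium-chain acyl-CoA dehydrogenase. In PZH it had 6.72, 14.9 and 21.2 SRPBM as lowest, median and highest, against 0, 14.1 and 18.6 in Control. Only Control replicate 2 was at 0, the library with the fewest read-pair equivalents over all circles, while in the other livers this circle had a median of 43.5 of them. With it the log2 fold change was 0.72 (SE 0.60, limma adjusted p = 0.798); without it, -0.04.

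Acaa2 makes the thiolase that cuts the acyl chain in the last step of the mitochondrial cycle. Its circle of exons 6 to 7 (chr18:74798312-74799174, plus strand, 306 bases) was above 0 in 3 PZH livers, at up to 7.75 SRPBM, and in 5 Control livers, at up to 9.81. The log2 fold change was -1.32 (SE 0.81, 95% interval -3.00 to 0.36, limma adjusted p = 0.710), so the interval holds both a large decrease and no change. Acad11, of the acyl-CoA dehydrogenase family, had 1 tested circle of 4, exons 14 to 17 (-0.43, SE 0.66, adjusted p = 0.916). An untested one, exons 10 to 13, was seen in 1 PZH and 4 Control livers. It lies outside the naming rule and was named with its values known. Circles of Acadl, Acadvl, Acad9 and Hadha, which encodes the alpha subunit of the trifunctional protein, were too rare to test.

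Acetyl-CoA acetyltransferases form and split acetoacetyl-CoA. Their 7 circles summed to 34.4 ± 6.20 SRPBM in PZH and 45.1 ± 12.6 in Control, and 3 of 6 tested log2 fold changes were negative. Acat1 encodes the mitochondrial enzyme, which works in ketone body and isoleucine metabolism, and had 4 circles, all tested. The circle of exons 4 to 5 (chr9:53594406-53594789, minus strand, 197 bases, all coding) had 14.7, 17.5 and 20.1 SRPBM as lowest, median and highest in PZH, against 15.7, 27.3 and 28.9 in Control. Control replicate 6, at 15.7, lay among the PZH livers, while the other 5 Control livers lay at 23.3 and above. Its means were 17.7 ± 1.91 in PZH and 25.1 ± 4.99 in Control. The log2 fold change was -0.47 (SE 0.20, 95% interval -0.88 to -0.06), the unadjusted p 0.0263 and the limma adjusted p 0.578. Leaving out single libraries moved the log2 fold change between -0.59 and -0.42 and the adjusted p between 0.432 and 0.684. At a median of 58.7 read-pair equivalents it was among the better measured circles.

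A less abundant Acat1 circle, exons 6 to 8 (chr9:53589178-53592111, 391 bases), was above 0 in 2 PZH and 5 Control livers, with a log2 fold change of -1.41 (SE 0.71, 95% interval -2.89 to 0.06, limma adjusted p = 0.658). The remaining Acat1 circles begin at exon 4, like the main one, and had fold changes of the other sign, 0.29 for exons 4 to 8 (SE 0.77, adjusted p = 0.955) and 0.15 for exons 4 to 7 (SE 0.68, adjusted p = 0.978). Both reversed when single libraries were left out. Summed over the gene, Acat1 circles had 19.0, 25.6 and 31.5 SRPBM as lowest, median and highest in PZH, against 22.1, 35.8 and 43.5 in Control. That is a log2 fold change of -0.43 (SE 0.20, limma adjusted p = 0.594 over 2205 host genes). Acat3, a paralogue of the cytosolic enzyme gene Acat2, had its circle of exons 6 to 9 above 0 in 5 livers of each group (0.14, SE 0.71, adjusted p = 0.978), with the origin of reads uncertain as given above.

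Peroxins carry proteins into peroxisomes, and 7 circles of 4 of their genes were found. Pex7, the receptor that brings in enzymes with an amino-terminal targeting signal, had the only tested one. The circle of exons 4 to 8 (chr10:19884778-19894802, minus strand, 464 bases) had 3.76, 0, 7.39, 1.24, 1.54 and 6.89 SRPBM in PZH replicates 1 to 6, against 1.26, 0, 0, 2.68, 0 and 0 in Control. It was above 0 in 5 PZH and 2 Control livers, and the Control values above 0 lay inside the PZH range. Its log2 fold change was 1.56 (SE 0.72, 95% interval 0.08 to 3.05), with an unadjusted p of 0.0401 and a limma adjusted p of 0.620. Without single libraries it ran from 1.28 to 2.01, with adjusted p of 0.543 to 0.720. At a median of 8.1 read-pair equivalents where above 0, its values rest on few reads. With the other 2 circles of Pex7 added, the gene's sum was above 0 in all 6 PZH livers, at 1.24 to 7.55, and in 2 Control livers, at 1.26 and 4.00. The sum's log2 fold change was 1.80 (SE 0.70), with a limma adjusted p of 0.539.

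Peroxisomal beta-oxidation itself was nearly empty. Ehhadh and Hsd17b4, which encode the bifunctional enzymes of that pathway, had 3 circles, summing to at most 0.617 SRPBM in PZH and 2.66 in Control, and none was tested. Acyl-CoA thioesterases, which release free fatty acids from coenzyme A, had 8 untested circles of Acot7, Acot8, Acot9 and Acot12, summing to 0 to 11.02 SRPBM in PZH and 0 to 5.39 in Control. The most abundant of these, Acot12 exons 7 to 11, had 1.26, 4.41 and 3.69 SRPBM in PZH replicates 2, 4 and 6 and was listed at 0 in the other PZH and all Control livers; it was picked here after its values were seen.

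**Figure D4:**
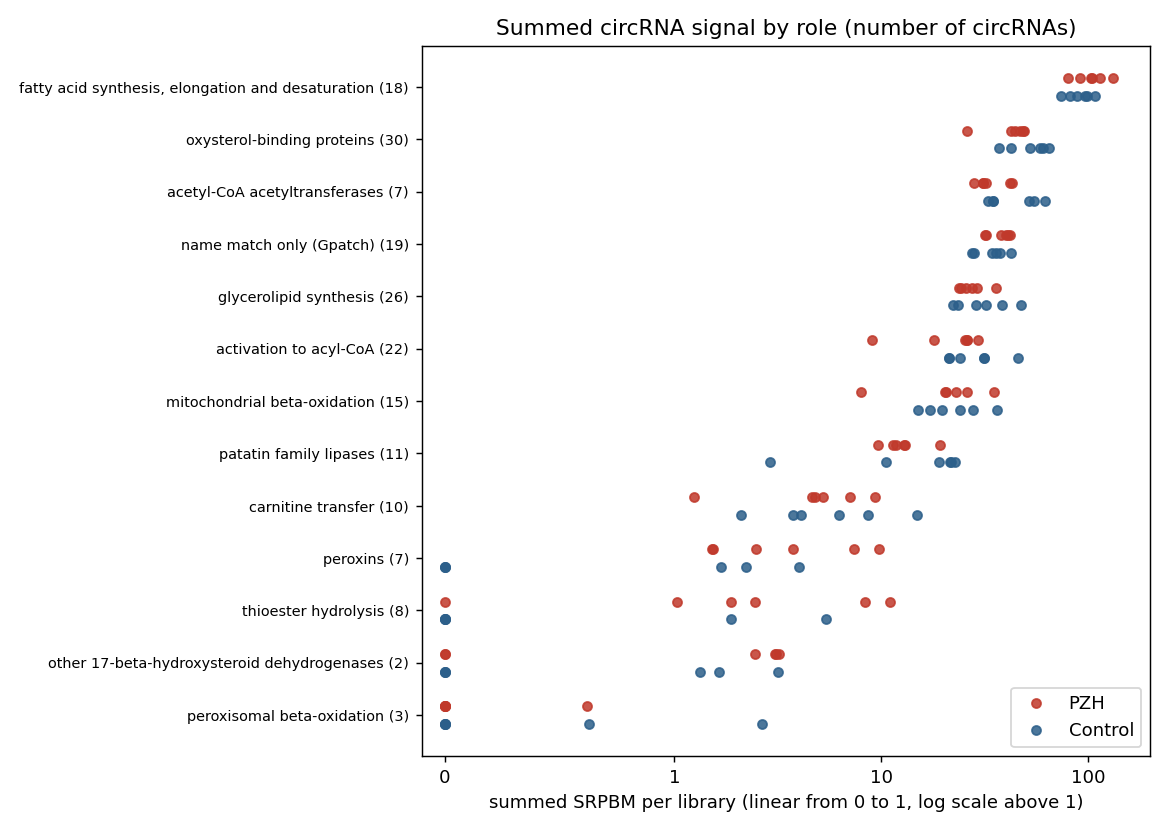
Summed SRPBM per library (x axis, linear below 1 and logarithmic above) of the circles in each role, with the number of circles in brackets; PZH points are drawn above Control points. The groups overlap in every role, and synthesis genes have the highest sums, 79.5 to 132.2 in PZH and 74.1 to 108.2 in Control.

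Fatty acid synthesis, elongation and desaturation had the largest signal, 29.8% of the total from 18 circles. They summed to 104.1 ± 18.2 SRPBM in PZH and 91.2 ± 12.5 in Control, and 4 of 6 tested log2 fold changes were positive. Nearly all of it was 1 circle of Acaca, the gene of the cytosolic acetyl-CoA carboxylase that makes malonyl-CoA for fatty acid synthesis. Exons 2 to 3 (chr11:84193079-84195687, plus strand) make a loop of 297 bases, 224 of them coding and the rest 5′ UTR, flanked by introns of 19523 bp upstream and 18470 bp downstream. It had 73.2, 92.1 and 119.5 SRPBM as lowest, median and highest in PZH, against 65.3, 78.2 and 91.5 in Control. Of the PZH livers, 4 lay above every Control liver, the lowest of them by little (91.9 against 91.5), and the other two, at 73.2 and 79.7, lay inside the Control range. With a median of 251 read-pair equivalents it was the best measured circle, at a log2 fold change of 0.24 (SE 0.13, 95% interval -0.03 to 0.51, limma adjusted p = 0.686). The means were 93.2 ± 16.5 in PZH and 78.3 ± 9.61 in Control.

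This circle gave 95.3% of the signal of Acaca, which had 5 more. Of these, exon 3 alone and exons 6 to 10 had positive log2 fold changes, 0.21 (SE 0.69, adjusted p = 0.970) and 0.85 (SE 0.69, adjusted p = 0.792). For exons 6 to 10 the origin of reads is uncertain, as given above. Acacb encodes the mitochondrial carboxylase whose malonyl-CoA restrains fatty acid burning, and its circle of exons 17 to 19 was seen in 5 PZH and 4 Control livers (0.38, SE 0.72, adjusted p = 0.940). Elovl5, which elongates polyunsaturated fatty acids, and Fads2, which desaturates them, had 1 tested circle each with negative fold changes of -0.56 (SE 0.75, adjusted p = 0.895) and -0.47 (SE 0.62, adjusted p = 0.895).

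Glycerolipid synthesis had 26 circles of 8 hosts, which summed to 27.6 ± 4.50 SRPBM in PZH and 32.0 ± 9.62 in Control. All 6 tested ones came from Lpin1 and Lpin2, which encode lipins, the phosphatases that turn phosphatidate into diacylglycerol. Of the 6, 2 had positive and 4 negative fold changes. Lpin2 exons 3 to 4 (chr17:71222055-71225241, plus strand, 398 bases) led with 4.71, 11.9 and 15.2 SRPBM as lowest, median and highest in PZH, against 0, 10.96 and 22.6 in Control. Control replicate 3 was the liver at 0, and without it the log2 fold change was -0.23, against 0.49 with all livers (SE 0.60, limma adjusted p = 0.887). Lpin1 had 11 circles, the most of any host together with Osbpl1a. Its circle of exons 7 to 12 (chr12:16560982-16568519, minus strand, 886 bases) was above 0 in 2 PZH and 5 Control livers (-1.14, SE 0.65, 95% interval -2.48 to 0.20, adjusted p = 0.690). Lpin2 exons 6 to 7 was above 0 in all 12 livers, with 2.27, 3.83 and 6.46 SRPBM as lowest, median and highest in PZH, against 2.23, 6.89 and 7.77 in Control (-0.45, SE 0.41, adjusted p = 0.831). The most abundant Lpin1 circle, exons 12 to 14, reached 8.51 in PZH, where 1 liver was at 0, and 7.76 in Control, where none was, and its log2 fold change rounds to 0 (SE 0.61). Lpin2 exons 3 to 7 had 0.06 (SE 0.80) and Lpin1 exons 12 to 13 had -0.33 (SE 0.67). Circles of the acyltransferase genes Agpat2, Agpat5, Gpat3, Gpat4 and Dgat2 and of Lpin3 were untested.

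Patatin-family lipases had 11 circles of 4 hosts. Pnpla8 encodes a phospholipase of mitochondria and peroxisomes, and its circle of exons 6 to 7 (chr12:44295898-44299291, plus strand, 230 bases) had 7.23, 10.1 and 16.1 SRPBM as lowest, median and highest in PZH, against 0, 13.9 and 18.6 in Control. As for Acadm, Control replicate 2 was at 0. Its log2 fold change was 0.33 with that library (SE 0.59, limma adjusted p = 0.932) and -0.42 without. Pnpla3, a lipid droplet protein studied in human fatty liver disease, had a circle of exons 2 to 4 (chr15:84171082-84174477, plus strand, 509 bases) in 2 PZH and 5 Control livers, at no more than 1.71 SRPBM in PZH and 2.98 in Control (-0.76, SE 0.56, adjusted p = 0.763). Circles of Pnpla6 and Pnpla7 were untested.

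Oxysterol-binding proteins move sterols and phosphoinositides between membranes. Their 30 circles of 7 hosts summed to 42.9 ± 8.59 SRPBM in PZH and 52.4 ± 10.8 in Control, with 3 positive and 4 negative tested fold changes. Osbpl9 exons 9 to 12 (chr4:109083089-109091699, minus strand, 395 bases) had 14.0, 18.4 and 21.5 SRPBM as lowest, median and highest in PZH, against 16.6, 22.1 and 27.3 in Control (log2 fold change -0.27, SE 0.20, 95% interval -0.68 to 0.13, limma adjusted p = 0.752). Osbpl11 exons 3 to 4 (chr16:33204672-33206002, plus strand, 256 bases) had 5.54, 6.63 and 11.6 in PZH, against 6.26, 8.66 and 16.0 in Control (-0.40, SE 0.31, adjusted p = 0.773). Both had lower medians in PZH, within overlapping ranges. The less abundant Osbpl11 circle, exons 2 to 5, had -0.37 (SE 0.64), and Osbp, the founding member, had 0.04 (SE 0.70) for exons 2 to 3. The circles of Osbpl2, Osbpl3 and Osbpl8 were too rare to test.

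Osbpl1a gave 11 circles, and the leading one differed in sign from the others tested. Exons 16 to 17 (chr18:12819505-12841346, minus strand, 320 bases) had 0, 5.13 and 6.75 SRPBM as lowest, median and highest in PZH, against 3.32, 7.11 and 12.5 in Control. The log2 fold change was -1.03 (SE 0.55, 95% interval -2.18 to 0.12, limma adjusted p = 0.686), while exons 13 to 15 had 0.08 (SE 0.68) and exons 12 to 14 had 0.79 (SE 0.65). Summed over all circles of the gene, the lowest, median and highest PZH livers had 3.31, 13.97 and 15.02 SRPBM, against 7.62, 12.1 and 14.9 in Control livers, with -0.05 for the fold change of the sum (SE 0.35, adjusted p = 0.971). The difference between its circles was not tested.

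Of the hydroxysteroid dehydrogenases outside these roles, Hsd17b2, which inactivates oestradiol and testosterone, had a circle of exons 2 to 3 (chr8:117734494-117742517, plus strand, 399 bases) above 0 in 4 PZH and 3 Control livers (0.56, SE 0.69, limma adjusted p = 0.889). The circle of Hsd17b13, a lipid droplet protein of liver, was too rare to test.

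The Gpatch circles, in the set by name only, summed to 37.4 ± 4.40 SRPBM in PZH and 34.3 ± 5.77 in Control. Gpatch2l carried most of it. Its circle of exons 3 to 8 (chr12:86256868-86269061, plus strand) averaged 12.8 ± 4.25 in PZH livers and 12.7 ± 2.97 in Control livers. For exons 4 to 8 (chr12:86260577-86269061) the means were 12.2 ± 3.21 in PZH and 12.1 ± 2.96 in Control. Their log2 fold changes were -0.03 (SE 0.27, 95% interval -0.59 to 0.53) for exons 3 to 8 and 0.01 (SE 0.26, 95% interval -0.52 to 0.54) for exons 4 to 8, the sign of which flips under both other scalings tried. The Gpatch2l circles of exons 3 to 7 and of exons 3 to 5 had 0.95 (SE 0.66, limma adjusted p = 0.743) and -0.27 (SE 0.52, adjusted p = 0.940). Gpatch2 exons 2 to 5 had 0.61 (SE 0.59) and Gpatch1 exon 11 had -0.75 (SE 0.74), each with an adjusted p of 0.842.

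**Figure D5:**
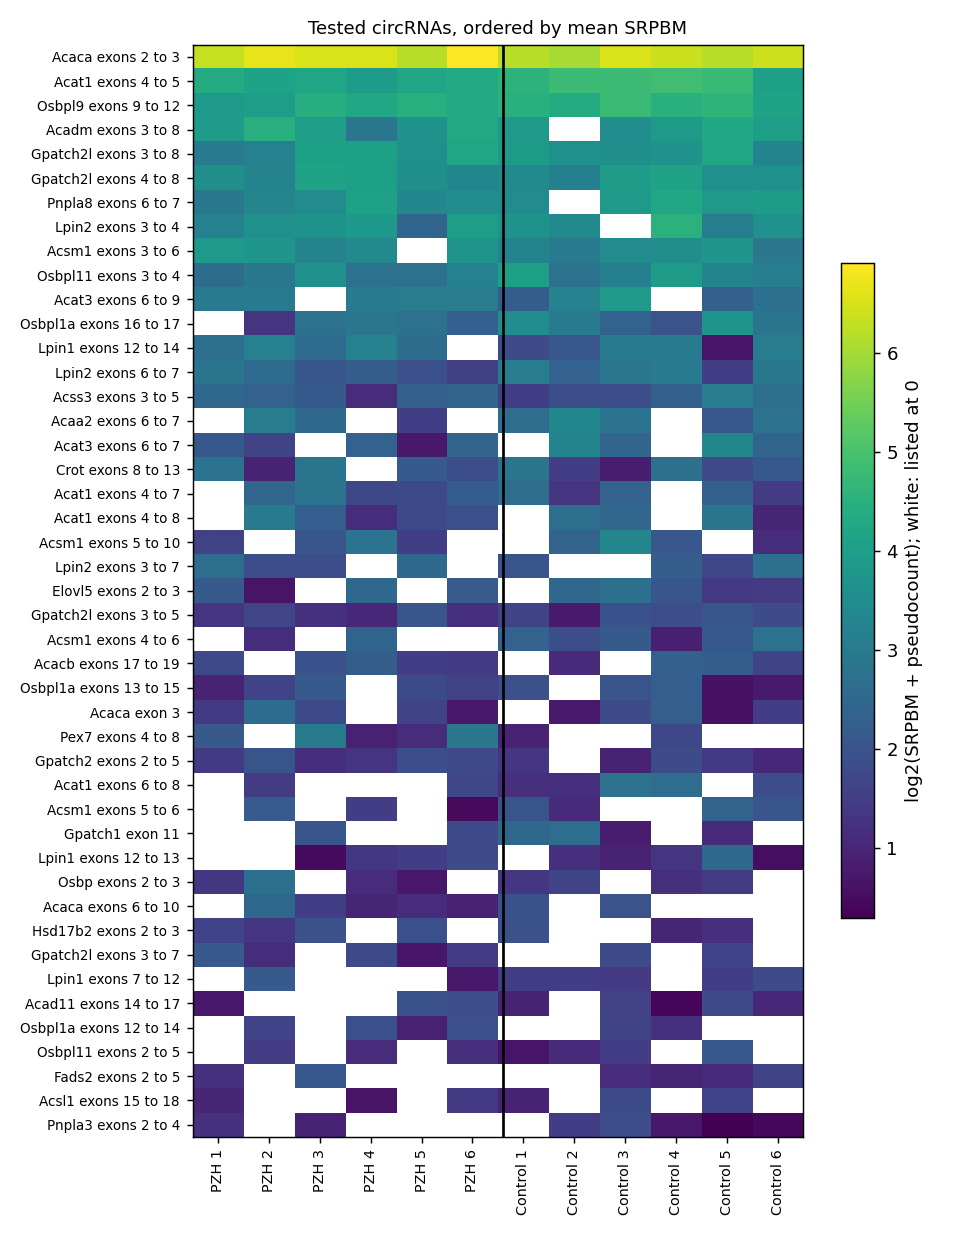
Log2(SRPBM + 0.636) of the 45 tested circles (rows, by mean SRPBM) in each library (columns, PZH then Control), white where listed at 0. Of the 45, 9 are above 0 in all 12 livers and 36 have at least 1 white cell, and the white cells spread over both groups.

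Adding up the circles of each gene gave the same picture. Of the 57 hosts, 27 could be tested among 2205 host genes. None had a limma adjusted p under 0.05, as none did in the background (0%), and 2 of 27, or 7.41%, had an unadjusted p under 0.05, against 8.21% of all hosts: Pex7 with a positive sign (background 5.08%) and Acat1 with a negative one (3.13%). Negative fold changes were found for 17 of the 27 (45.2% of all hosts tested), with a median log2 fold change of -0.19, against 0.06, and no host had groups that did not overlap (0.862%).

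Among the 133 untested circles, 47 (35.3%) were above 0 in PZH livers only and 55 (41.4%) in Control livers only, against 36.2% and 33.2% of all 12575 untested circles. None of the 133 exceeded 7.41 SRPBM in any liver.

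The wider pathway was read from 93 other lipid genes, whose names were chosen with earlier results known. Of these, 54 had 203 circles and 57 circles were tested, with 24 positive and 33 negative log2 fold changes and a median of -0.11, against 0.06 over all circles. A single circle passed, where the background was 0.0517%. It was Acbd5 exons 6 to 9 (chr2:23087485-23094517), from a peroxisomal acyl-CoA binding protein, with 2.20 to 11.5 SRPBM in all 6 PZH livers and listed at 0 in all 6 Control livers (limma adjusted p = 0.0390); leaving out any Control library put its adjusted p between 0.0623 and 0.0923. At an unadjusted p under 0.05 there were 4 positive (7.02% of 57, against 4.55%) and 4 negative ones (7.02%, against 3%). Because the names were chosen with results known, these shares and the single call are descriptions and cannot show an excess. The Acbd5 circle also passed the filter on libraries above 0 through its PZH libraries alone.

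Besides Acbd5, the positive circles were of Mlxipl, Abcd3 and Lonp2. Mlxipl encodes the glucose-responsive factor ChREBP, and its circle of exons 3 to 7 had an adjusted p of 0.430. For Abcd3, a peroxisomal fatty acid transporter, exons 2 to 7 was above 0 in 5 PZH livers and 1 Control liver (adjusted p = 0.601). For Lonp2, a peroxisomal protease, exons 2 to 11 had 3.01 ± 0.461 SRPBM in PZH (adjusted p = 0.613). That circle was above 0 in 4 Control livers at up to 3.51. The most abundant tested circles of Acbd5, Abcd3 and Lonp2 were others, with negative log2 fold changes. These were -0.02 for Acbd5 exons 7 to 8, -0.49 for Abcd3 exons 2 to 4 and -0.05 for Lonp2 exons 9 to 11. Further tested circles of Abcd3 and Lonp2 had either sign. The negative circles named here were of the acyl-CoA binding gene Acbd6, of Soat2, a cholesterol esterifying enzyme of liver, and of the sterol carrier gene Scp2. Acbd6 exons 4 to 6 had 21.1 ± 3.59 in PZH and 28.1 ± 5.50 in Control (-0.40, adjusted p = 0.624). The Soat2 circle was above 0 in 4 PZH and 6 Control livers (-1.40, adjusted p = 0.613). Scp2 exons 13 to 14 had 45.7 ± 9.02 in PZH and 61.1 ± 11.1 in Control (-0.42, adjusted p = 0.566). Other tested circles of Scp2 had either sign, from -1.58 for exons 11 to 14 to 1.24 for exons 3 to 6. Those of Acbd6 did too, with 0.74 for exons 5 to 6 and -0.35 for exons 4 to 5.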

How the data were processed

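CircRNAs were measured by RNA sequencing of liver from 6 PZH and 6 Control mice, 1 library each. Trizol and a TruSeq kit served for RNA and libraries, per the labels' protocols, and Trim Galore and STAR were run against GRCm38 (mm10), per the submitters' processing notes. For the circRNA caller, its filters and how SRPBM were computed, no statement is given in the sources used here. The values are a signal in SRPBM, as deposited by the authors. Whole reads could not be recovered: 56.8% to 63.8% of low values per library lay on whole steps, counted from 0.05 below to 0.1 above a step among values up to 8.5 steps. No count model was used.

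Hosts and exon numbers were assigned here from GENCODE M21, with exon numbers from 1 transcript per host. Junction sequences were joined from its transcripts. The trend method of limma 3.58.1 (R 4.3.3) was fitted 2-sided to all circRNAs above 0 in at least 6 of 12 libraries, with Benjamini-Hochberg adjustment over all tested and a threshold of 0.05. A pseudocount of 0.636 was added, the median over libraries of the smallest value above 0. Host gene sums were tested likewise. The procedure was tested on simulated data, with changes set only in the more abundant circRNAs and a single dispersion. It does not show how well changes of low circRNAs are found. Tables were handled in Python 3.11.15 with numpy 2.4.6 and pandas 2.3.3, and plots drawn with matplotlib 3.10.9.

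The members and lists were chosen with earlier results of these data known. Named circRNAs are the 10 most abundant, those with an unadjusted p under 0.05, the most abundant and the smallest p of each role, all tested circRNAs of hosts with at least 4, host genes and pathway circRNAs with an unadjusted p under 0.05, and a few others for their role. A circRNA that this rule names is not reported here. Same-numbered libraries of both groups did not deviate together: their correlation was -0.12 to 0.03 over 1089 circRNAs, so the numbers were not taken as pairs. The libraries are of separate mice as far as the labels say, and the p-values measure the spread between these libraries. Alternatives were other pseudocounts, filters and scalings, library weights, a replicate block, other member rules and leaving out each library.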

Additional observations from a re-analysis of the deposited data

Results flagged for a closer look

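In 12 of 95 groups of 6 values, 1 library stood apart from the others by a gap above Dixon's 95% critical value. Chance flags about 1 in 20 independent groups of normal values. The groups here often hold zeros, and sums share values with their circles, so the count cannot be set against that rate. In PZH, the Acsm1 circle of exons 3 to 6 was at 0 in replicate 5, and that of exons 4 to 6 was at 4.69 SRPBM in replicate 4 (next 1.60). The Lpin1 circle of exons 7 to 12 was at 3.85 in PZH replicate 2 (next 1.00) and at 0 in Control replicate 4 (next 2.03). The summed Pex7 circles reached 4.00 in Control replicate 4 (next 1.26). Abcd3 exons 2 to 7 was at 2.72 in Control replicate 4 (others 0), and Acbd6 exons 4 to 6 at 38.7 in Control replicate 6 (next 28.3). Among role sums, oxysterol-binding circles were at 26.1 in PZH replicate 1 (next 42.4), patatin-family circles at 19.2 in PZH replicate 4 (next 12.97) and thioesterase circles at 5.39 in Control replicate 6 (next 1.88). Peroxisomal beta-oxidation circles were at 0.617 in PZH replicate 5 (others 0) and 2.66 in Control replicate 4 (next 0.629).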

How the results depend on the processing

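No lipid gene circle had a limma adjusted p under 0.05 in any of 24 alternatives, and no host gene sum in any of 22. Of the 24, 2 only left circles out of the main result and could not have added a call. These were the set without Gpatch circles and the set with both ends on boundaries. The count at an unadjusted p under 0.05, 3 of 45, was 1 when a circle had to be above 0 in all 12 libraries, 8 with no filter and 2 with the replicate block, and 2 to 6 when single libraries were left out. The pathway list's count of 1 was 0 with the all-12 filter, 2 with no filter, 0 with the replicate block and 0 when any 1 library was left out; the adjusted p of Acbd5 exons 6 to 9 was 0.151 with the block, and too few libraries remained to test it without a PZH library. The difference in summed SRPBM, -14.7, was -28.4 to -4.58 without single libraries, -23.8 and -25.8 under median-of-ratios and equal-sum scaling, -17.8 without Gpatch circles and -15.5 with both ends on boundaries.

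The log2 fold change of Gpatch2l exons 4 to 8 turned to -0.0267 under median-of-ratios scaling, -0.0322 under equal-sum scaling and -0.000816 with library weights, and that of Acsm1 exons 5 to 10 to 0.0278 with weights. Without single libraries, 10 circles changed sign. Their ranges were -0.0383 to 0.945 for Acadm exons 3 to 8, -0.42 to 0.56 for Pnpla8 exons 6 to 7, -0.23 to 0.81 for Lpin2 exons 3 to 4, -0.63 to 0.27 for Acsm1 exons 3 to 6, -0.55 to 0.25 for Acsm1 exons 5 to 10, -0.55 to 0.16 for Crot exons 8 to 13, -0.0918 to 0.741 for Acat1 exons 4 to 8, -0.29 to 0.63 for Acat1 exons 4 to 7, -0.13 to 0.11 for Gpatch2l exons 3 to 8 and -0.0912 to 0.10 for Gpatch2l exons 4 to 8. Over 35 named items, 702 of 735 alternative log2 fold changes kept their sign and side of the threshold, 7 lost a call, 1 gained one and 25 changed sign. The cause was not tested. Of the 45 tested circles, 36 had at least 1 entry at 0, and standard errors ran from 0.13 to 0.82 on the log2 scale.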
